A study of Rattus norvegicus with 6 samples.

Results

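The 5p arms of the let-7 family, with miR-98-5p and the 4 miR-3596 rows that lie on the opposite strand of let-7 genes, were examined in small RNA libraries of PC12 cells. PC12 is a rat adrenal pheochromocytoma line, a tumour line of neuroendocrine chromaffin origin. Members were chosen by name: let-7a to let-7i 5p arms, miR-98-5p and miR-3596a to miR-3596d, which gave 13 of 1289 rows of the deposited count table, or 13 of its 584 rows with a known miRNA name. The groups were 3 PC12 libraries with the label EC and 3 with the label EN. The title of the series names Netrin-1, endothelial cell exosomes and nerve repair. The labels spell out neither abbreviation and give no genotype, dose or time. Nothing in them says that replicates came from separate cultures, and a p-value therefore speaks only to the spread between these libraries, which may be technical.

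Let-7 is one of the most conserved miRNA families in animals. It is known for low levels in dividing progenitor cells and high levels in differentiated tissue, brain included, and for lowering the output of transcripts such as those of Lin28, Hmga2 and Ras genes. The family members are made from several gene copies, and since all carry the same seed, the bases that pair first with a target, they are thought to share many targets. The 5p arm is the strand that is mostly loaded as the guide, while the 3p arm is usually discarded.

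The mature sequences are shown because they decide how the rows can be read. All 13 rows matched a RefSeq entry (build GRCr8), and each sequence is given 5′ to 3′ with the seed, bases 2 to 8, in capitals. The prefix rno marks rat and is left out below where no doubt arises. The 9 rows of the let-7 seed were:
rno-let-7a-5p: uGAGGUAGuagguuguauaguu
rno-let-7b-5p: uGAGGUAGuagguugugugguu
rno-let-7c-5p: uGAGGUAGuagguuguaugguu
rno-let-7d-5p: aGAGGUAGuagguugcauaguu
rno-let-7e-5p: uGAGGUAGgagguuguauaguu
rno-let-7f-5p: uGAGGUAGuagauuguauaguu
rno-let-7g-5p: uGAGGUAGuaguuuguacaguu
rno-let-7i-5p: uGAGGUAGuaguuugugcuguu
rno-miR-98-5p: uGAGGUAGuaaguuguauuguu

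In the RefSeq table used, these 9 carry the seed GAGGUAG, and each has 22 bases. Counted from 1 at the 5′ end and with let-7a as the reference, let-7c differs by A19G, let-7e by U9G and let-7f by G12A. Let-7b differs from let-7a by A17G and A19G, let-7d by U1A and U16C, let-7g by G12U and U18C, and miR-98 by G11A and A19U. Let-7i differs most, by G12U, A17G, U18C and A19U. Of the 36 pairs among the 9, 4 differ by 1 base, and the largest difference is 6 bases. How the authors assigned reads with a mismatch is not given in the sources used, so reads of members that differ by 1 base could have been split between rows.

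The 4 miR-3596 rows carry other seeds, again in capitals:
rno-miR-3596a: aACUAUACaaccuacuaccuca
rno-miR-3596b: aACUAUGCaaccuacuaccu
rno-miR-3596c: aCUAUACAaccuccuaccuca
rno-miR-3596d: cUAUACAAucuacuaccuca

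MiR-3596a is the exact reverse complement of let-7a-5p over all 22 bases. MiR-3596c, with 21 bases, lies within the reverse complement of let-7e-5p, from which it lacks 1 base. MiR-3596b and miR-3596d, with 20 bases each, lie within those of let-7d-5p and let-7f-5p and lack 2 bases each. In GRCr8, let-7a-2 is on the plus strand of chromosome 8 and miR-3596a on the minus strand at the same place, within the span of the long non-coding gene Lnc215. The let-7a-2 hairpin has 96 bases, with the 5p arm, which is also the stretch opposite miR-3596a, in capitals:
let-7a-2 hairpin: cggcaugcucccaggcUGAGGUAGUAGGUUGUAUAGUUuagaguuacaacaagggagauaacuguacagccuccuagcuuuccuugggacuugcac

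Another gene, let-7a-1 on chromosome 17, gives the same let-7a-5p sequence. The let-7a-1 gene lies in a cluster with the genes of let-7f and let-7d, in the span of a long non-coding gene. Let-7e and miR-3596c lie on opposite strands of chromosome 1 within the span of Spaca6, between miR-99b and miR-125a. Let-7b lies beside a let-7c gene on chromosome 7, a further let-7c gene lies beside miR-99a on chromosome 11, and let-7i stands apart on chromosome 7. Let-7g, on chromosome 8, lies within the spans of Rpl29 and Wdr82, and miR-98 lies with a further let-7f gene within the span of Huwe1 on chromosome X.

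The libraries held 4521694 to 6554639 miRNA counts, 6153582 to 6554639 in EC and 4521694 to 5371351 in EN. Levels are CPM, counts scaled to the miRNA counts of the library, after TMM scaling, which corrects for differences in composition between libraries. Of the 6 neuroendocrine markers, 5 were tested and 0 passed edgeR's test, where 4.17 percent of all 624 rows passed. MiR-183-5p, 1 of these 5, could not be compared alone. The part of its pair under miR-3553, a row of reverse-complementary sequence, went from 0 to 100 percent between libraries. Its log2 fold change was -1.61 alone and 0.51 with miR-3553 added (adjusted p = 0.633 and 0.654 by edgeR's test). MiR-7a-5p stood at 975 to 1140 CPM across EC and higher, at 1218 to 1487 CPM, across EN (adjusted p = 0.152), miR-96-5p lay lower in each EN library, at 1.5 to 3.2 against 3.4 to 4.0 CPM (adjusted p = 0.248), and miR-375-3p, an islet and endocrine miRNA, was near 0 at 2.0 to 3.2 CPM. Of the 3 neuron markers, 2 were tested and 1 passed: miR-128-3p stood at 691 to 750 CPM across EC and 1104 to 1201 CPM across EN (log2 fold change 0.68, adjusted p = 0.0193 by edgeR's test), while miR-9a-5p had a log2 fold change of -0.41 (adjusted p = 0.163) and miR-124-3p stayed at no more than 1.1 CPM. Both rows of miR-126a, typical of endothelial cells, were tested; together they stood at 1069 to 1145 CPM across EC and 1085 to 1211 CPM across EN, and miR-126a-5p, the less abundant, passed as lower in EN. The 6 blood cell markers together stood at no more than 12.6 CPM across EC and 33.1 CPM across EN, with miR-144-3p at 0 in all EC libraries. Only 1 of these 6 had enough counts to be tested, miR-451-5p, and it passed as higher in EN. Of those not tested, miR-142-5p and miR-142-3p had lower means in EN, at 0.23 and 1.11 CPM against 0.83 and 1.61 CPM in EC. MiR-144-3p, miR-486 and miR-223-3p had higher means in EN, at 0.12, 0.34 and 0.49 CPM against 0, 0.21 and 0.26 CPM in EC. The part of such cell types in the let-7 results was not tested.

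As deposited, the let-7a rows could not be compared between groups. Row rno-let-7a-5p held 94453, 129854 and 133693 counts in EC replicates 1 to 3, and 142, 75682 and 626 counts in EN replicates 1 to 3. Row rno-miR-3596a held 69, 115 and 1061 counts in EC, and 99668, 149 and 68271 counts in EN. Where one row was full the other was almost empty: EN replicates 1 and 3 carried the counts under miR-3596a, and the other 4 libraries carried them under let-7a-5p. MiR-3596a made up 99.9 percent of the pair in EN replicate 1 and 99.1 percent in EN replicate 3, and at most 0.787 percent in any other library. By edgeR's quasi-likelihood test, a model of counts fitted across all rows, let-7a-5p had a log2 fold change of EN over EC of -1.67 (SE 2.37, adjusted p = 0.731). Without EN replicate 2 that value was -7.81 (adjusted p = 0.106), and with limma-voom it was -5.60 (adjusted p = 0.277). MiR-3596a had one of 7.45 (SE 2.86, adjusted p = 0.244) by the same test, and with DESeq2, which called it, the value was 7.50 (adjusted p = 0.000829).

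**Figure D1:**
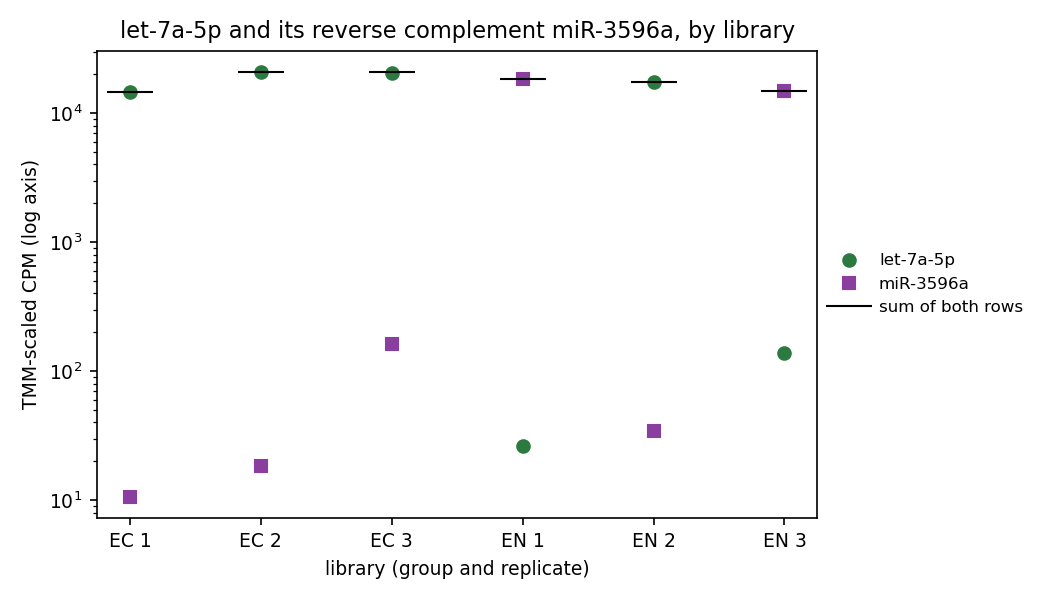
TMM-scaled CPM (log axis) of let-7a-5p (circles), miR-3596a (squares) and their sum (black dashes) in each of the 6 libraries, 3 EC and 3 EN. The sum lies between 14617 and 20847 CPM in all 6 libraries, while EN 1 and EN 3 hold it under the miR-3596a name.

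Summed, the pair stood at 14617, 20847 and 20682 CPM across EC and at 18454, 17413 and 14881 CPM across EN. The groups overlapped, and the lowest value was that of EC replicate 1. The log2 fold change of the sum was -0.15 (SE 0.16), with a 95 percent interval from -0.51 to 0.22 and an adjusted p of 0.656 by edgeR's quasi-likelihood test. Without a stated strand rule, reads of a sequence and of its reverse complement cannot be told apart in these counts, so the sum is the value used for let-7a below. In bulk libraries such as these, fewer cells that make a miRNA and less of it per cell cannot be told apart. Since the seeds of the rows differ, the name under which a read was counted also sets the seed that a target search would use.

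In the other 3 pairs the counts did not move from one row to the other between libraries. Of the let-7e pair, miR-3596c held 21.7 ± 1.17 percent across EC and 21.5 ± 0.459 percent across EN (SD, n = 3), with 20.9 to 23.0 percent over all 6 libraries. MiR-3596d held 0.407 to 0.566 percent of the let-7f pair. MiR-3596b held 0.0183 to 0.0384 percent of the let-7d pair, with 12 to 27 counts a library. Unlike in the let-7a pair, the split of each of these pairs thus stayed within a narrow range in both groups.

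**Figure D2:**
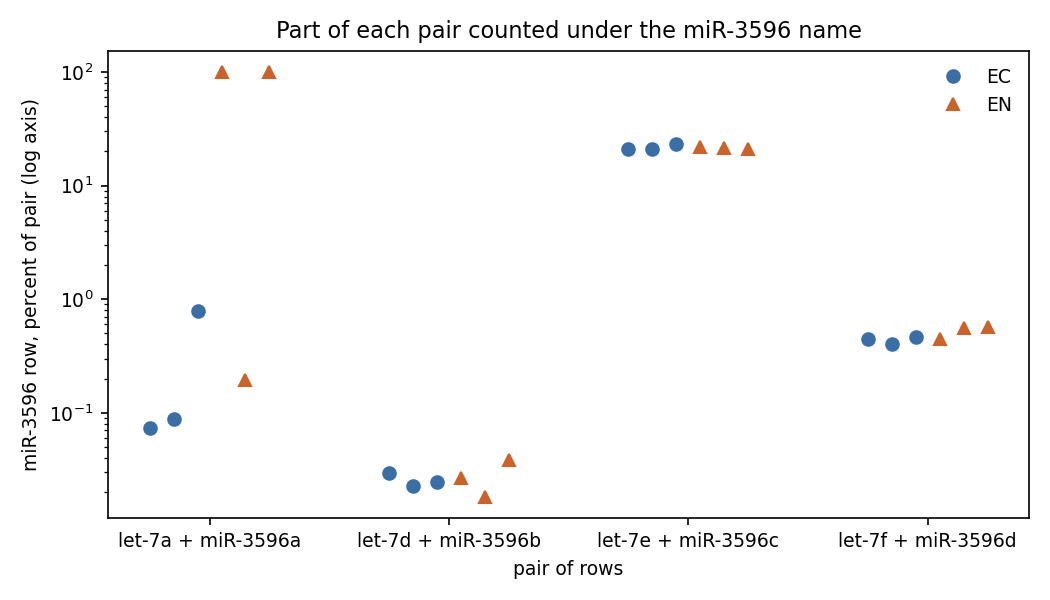
Percent of the counts of each pair that lie under the miR-3596 name (log axis), 1 point per library, circles for EC and triangles for EN. Only in the let-7a pair do libraries lie at both ends of the axis, with EN 1 at 99.9 percent and EC 1 at 0.0730 percent, while the let-7e pair keeps to 20.9 to 23.0 percent.

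The same was looked for in every known row with a RefSeq sequence. Of pairs with at least 100 counts in each library, 22 had sequences that were identical, reverse-complementary or contained one in the other in this way. Of the 5 whose sequences matched over their full length, all 5 held under 10 percent of the pair in one library and over 90 percent in another, and of the 17 with 1 or more bases missing, 1 did, miR-501-3p with miR-3560. Those 5 were let-7a-5p with miR-3596a, miR-125b-5p with miR-3588, miR-378a-5p with miR-3557-3p, miR-181a-1-3p with miR-3570, and the identical let-7a-1-3p and let-7c-2-3p. The cuts of 10 and 90 percent do not mean that all other splits were constant. Among the 17, miR-378a-3p held 0.283 to 32.9 percent of its pair with miR-3557-5p. The pattern of counts that change rows was noticed in these data and is given as a description. What assigned the reads was not tested.

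With the 4 pairs summed, 9 loci remained, and let-7c and let-7b were the most abundant. Rno-let-7c-5p stood at 48857, 55749.9 and 56521 CPM across EC and at 50142, 55192 and 45388 CPM across EN. Let-7b-5p stood at 40839, 42671 and 47933 CPM across EC and at 39123, 48547 and 32155 CPM across EN. In both, EN replicate 2 lay within or above the EC range and EN replicate 3 below it, so the groups overlapped. The log2 fold change was -0.10 (95 percent interval -0.33 to 0.14) for let-7c and -0.13 (-0.49 to 0.22) for let-7b, with adjusted p of 0.634 and 0.666 by edgeR's quasi-likelihood test.

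Let-7i-5p was the 1 locus whose groups did not overlap. It stood at 28308, 30282 and 28305 CPM across EC and at 25204, 26503 and 26102 CPM across EN, so that each EN library lay below each EC library. The gap was small, a log2 fold change of -0.16 (SE 0.07, 95 percent interval -0.33 to 0.01), and it did not pass edgeR's quasi-likelihood test (adjusted p = 0.248). Among all 624 rows tested, 15.1 percent had EN values that lay all below EC values, so 1 of 9 loci is close to that background.

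Let-7f and let-7d came next below let-7a in level. Let-7f with miR-3596d stood at 13352, 18745 and 15548 CPM across EC and at 16152, 11663 and 12701 CPM across EN. Let-7d with miR-3596b stood at 13626, 14114 and 16717 CPM across EC and at 15077, 15041 and 12367 CPM across EN. Both overlapped between groups, and EN replicate 1 lay within the EC range of both. Their log2 fold changes were -0.23 (-0.62 to 0.15) and -0.07 (-0.35 to 0.21), with adjusted p of 0.465 and 0.781 by edgeR's test.

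Let-7g, let-7e and miR-98 were the least abundant. Let-7g-5p stood at 6934, 8414 and 7935 CPM across EC and at 8163, 6310.0 and 6408 CPM across EN. Let-7e with miR-3596c stood at 4219, 4953 and 6256 CPM across EC and at 5230, 5311 and 3796 CPM across EN. MiR-98-5p stood at 3344, 4205 and 4167 CPM across EC and at 3713, 2629 and 2901 CPM across EN. In all 3 the groups overlapped, for let-7g and miR-98 through EN replicate 1, which lay above the other EN libraries. With all 6 libraries, miR-98-5p had the largest difference of the 9 loci, a log2 fold change of -0.34 (SE 0.16, 95 percent interval -0.71 to 0.03, adjusted p = 0.259 by edgeR's test). It ranged from -0.49 without EN replicate 1 to -0.19 without EN replicate 2, and in the latter fit let-7b, at -0.25, was further from 0. Let-7g stood at -0.16 (-0.47 to 0.15) and let-7e at -0.11 (-0.54 to 0.33), with adjusted p of 0.559 and 0.772.

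**Figure D3:**
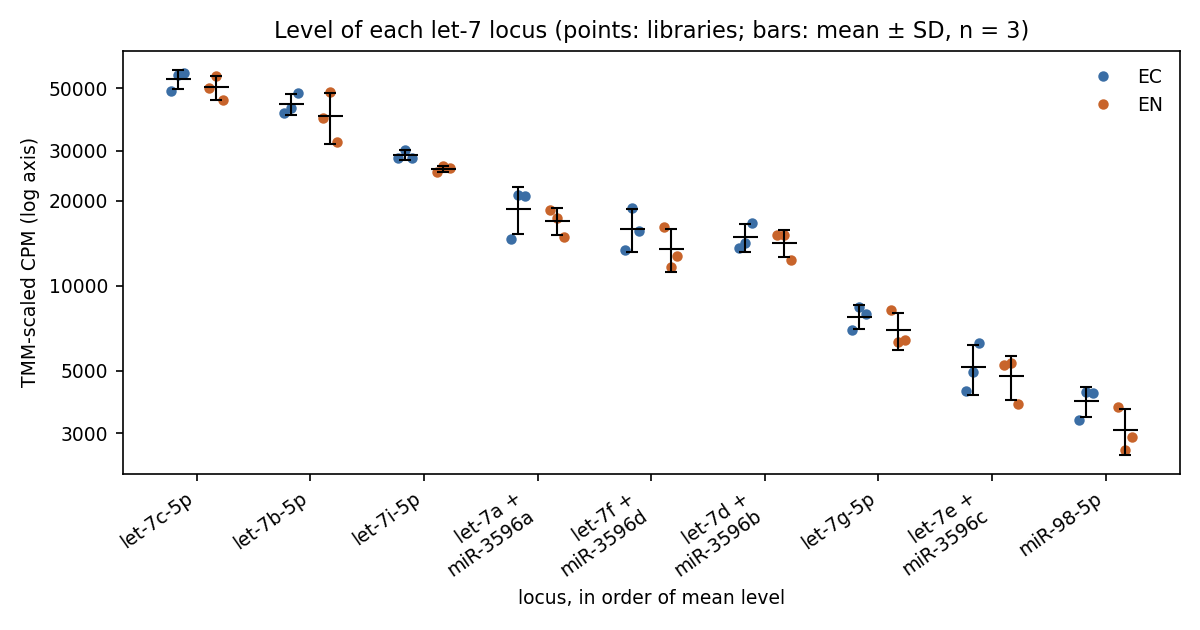
TMM-scaled CPM (log axis) of the 9 let-7 loci in order of mean level, points for libraries (blue EC, orange EN), bars for mean ± SD with n = 3. Let-7c-5p is highest at a mean of 51975 CPM over 6 libraries and miR-98-5p lowest at 3493 CPM, and only for let-7i-5p do both groups separate.

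The order of levels by mean over the 6 libraries was let-7c (51975 CPM), let-7b (41878), let-7i (27451), let-7a (17815), let-7f (14693), let-7d (14490.4), let-7g (7361), let-7e (4961) and miR-98 (3493). As mature lengths are equal for the 9 let-7 seed rows, CPM can be set side by side, though ligation and amplification can favour some sequences. Of the 8 neighbouring steps in this order, 7 held in 6 of 6 libraries. Let-7f and let-7d did not differ beyond their spread, with let-7f higher in 3 of 6 libraries. The ranges of let-7a and let-7f overlapped in both groups, and those of let-7c and let-7b overlapped in EN. The other 5 neighbouring ranges were apart in both groups.

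Of the 9 loci, 0 passed the edgeR test after Benjamini-Hochberg adjustment, and 0 had an unadjusted p under 0.05, where 4.17 percent of all 624 rows passed and 22.3 percent had an unadjusted p under 0.05. DESeq2 and limma-voom also called 0 of the 9, where they called 12.8 and 3.85 percent of all 624 rows. Of the 13 deposited rows, 0 passed edgeR's test and 0 had an unadjusted p under 0.05. Of all 628 deposited rows tested, 3.98 percent passed and 21.7 percent had an unadjusted p under 0.05. DESeq2 called 1 of the 13, the miR-3596a row above, and its share of all deposited rows was not worked out. All 9 loci had a log2 fold change below 0, as had 49.8 percent of all rows tested and 218 of the 376 known rows tested. The median of the 9 loci was -0.15, against 0.01 for all rows and -0.08 for the known rows. The signs were not the same in every fit: only 6 of 9 were below 0 without EN replicate 3, 7 of 9 without EC replicate 3 and 8 of 9 without the predicted rows, with medians of -0.06 in all 3. When counts were divided by the library totals implied by the authors' RPM values, which exceed the summed miRNA counts, 4 of 9 passed as lower in EN, let-7b, let-7c, let-7i and miR-98, with log2 fold changes of -0.46, -0.42, -0.48 and -0.65. With those totals the median of all rows was -0.30 and 15.0 percent of rows passed as lower in EN.

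**Figure D4:**
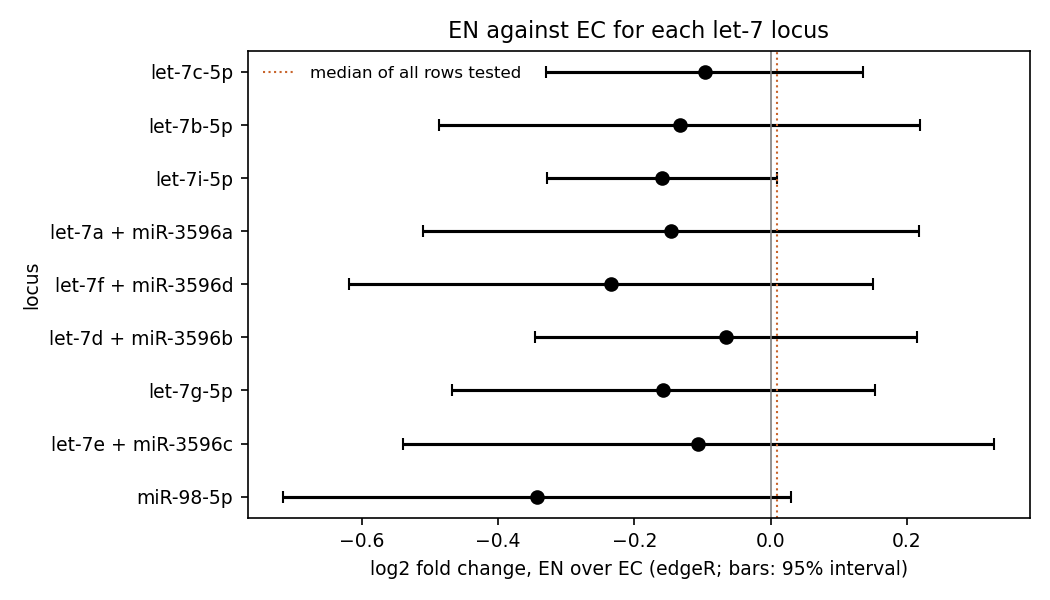
Log2 fold change of EN over EC for each of the 9 let-7 loci (points) with its 95 percent interval (bars) from edgeR's quasi-likelihood fit; the dotted line is the median of all rows tested, 0.01. All points lie below 0, from -0.34 to -0.07, and each interval includes 0.

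The family as a whole was a large part of the libraries. The 13 rows together took 17.8, 20.8 and 20.7 percent of known miRNA counts in EC, and 18.7, 18.5 and 16.2 percent in EN. The group values were 19.8 ± 1.68 and 17.8 ± 1.38 percent (SD, n = 3), a difference of -1.96 percentage points for which the exact permutation test, two-sided, gave p = 0.3, where 3 against 3 libraries cannot go below 0.1. The ranges overlapped through EC replicate 1, which lay below 2 of the EN libraries. Counting only the let-7 seed rows, without the 4 miR-3596 rows, would give 16.6 ± 1.90 percent in EN and a difference of -3.09 points (two-sided exact permutation p of 0.2, n = 3 in each group). The implied library totals exceed the summed miRNA counts, and what they count is not given in the sources used. Of these totals the family took 6.17 ± 0.417 percent across EC and 4.50 ± 0.422 percent across EN. For this difference the exact permutation test (two-sided) gave p = 0.1, its smallest value for 3 against 3. Against these totals the median log2 fold change of all rows was -0.30, so lower values in EN were not particular to the family.

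Within the family the share of each locus, a measure that no scaling of libraries affects, overlapped between groups. Let-7c made up 27.9 ± 0.183 percent of family counts across EC and 28.6 ± 0.851 percent across EN (SD, n = 3). Let-7b made up 22.8 ± 1.23 and 22.6 ± 2.76 percent, let-7i 15.1 ± 1.20 and 14.9 ± 1.55 percent, and let-7a 9.65 ± 1.10 and 9.64 ± 0.490 percent. The remaining 5 loci held between 1.76 and 8.22 percent on average in either group. The shares of 0 of 9 loci lay apart between groups, and the two-sided exact permutation p ranged from 0.3 to 1, or 1 for each after Benjamini-Hochberg adjustment over the 9. The largest difference in either direction was that of let-7c, at 0.751 percentage points.

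**Figure D5:**
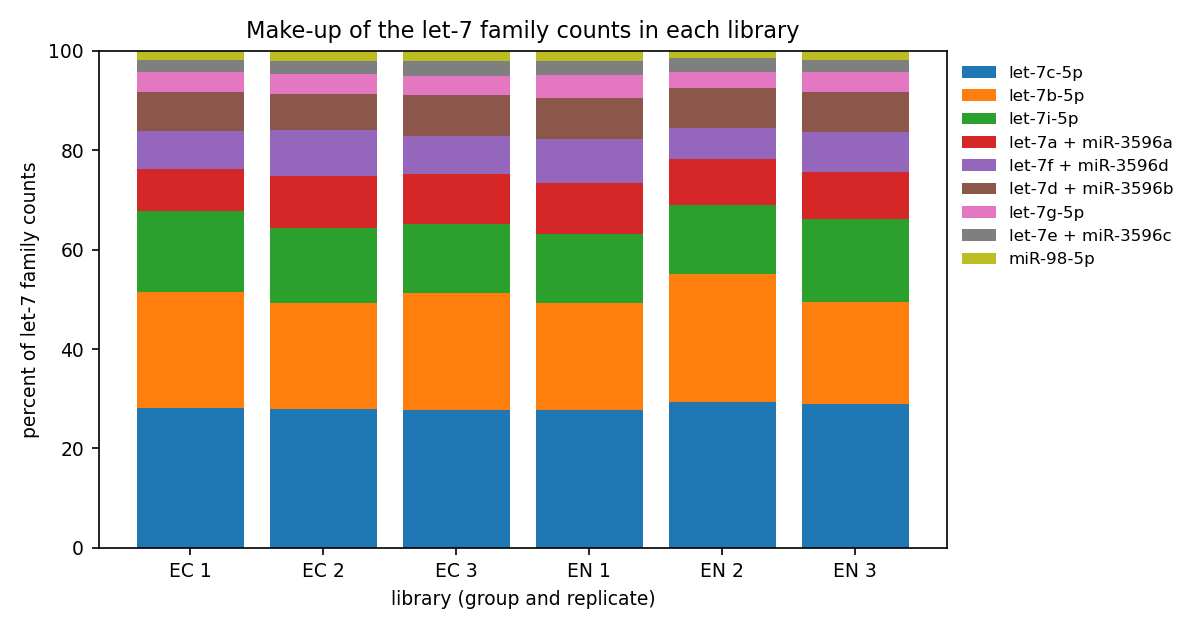
Percent of the let-7 family counts held by each of the 9 loci (stacked, summing to 100) in each library, 3 EC and 3 EN. Let-7c takes 27.7 to 29.3 percent and let-7b 20.5 to 25.7 percent, and let-7c, let-7b, let-7i and let-7a follow in this order in all 6 libraries.

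Other miRNAs lie in clusters with let-7 genes and can share a primary transcript with them. Of the 6 rows, 0 passed edgeR's test, where 4.17 percent of all rows did. Their median log2 fold change was -0.08 against 0.01 for all rows, but it includes miR-125b-5p and miR-3588, whose counts changed rows between libraries. In the fit with all rows of identical or reverse-complementary sequences summed, the other 4 had a median of 0.09, with 1 below 0. The median of all rows was -0.0041 in that fit. Without 1 library, the median of all 6 neighbours ranged from 0.0027 to 0.13 in the fit with only the let-7 pairs summed. That range again includes miR-125b-5p and miR-3588 as deposited, so it says little about the other 4. Of the 6, 1 had an unadjusted p under 0.05, near the 22.3 percent of all rows. That 1 was miR-99b-5p, from the cluster of let-7e and miR-125a, which stood at 24181, 30617 and 30360.3 CPM across EC and at 33690.4, 41185 and 41985 CPM across EN. All its EN values lay above the EC values, as did those of 14.3 percent of all rows, with a log2 fold change of 0.46 (SE 0.13, adjusted p = 0.0848 by edgeR's test). It passed with DESeq2 (adjusted p = 0.0286), where 12.8 percent of all rows passed. It also passed in edgeR's test without a filter (adjusted p = 0.0204), where 3.5 percent of 1285 rows passed. With the implied library totals described above its log2 fold change was 0.13 (adjusted p = 0.476). In the same cluster let-7e stood at -0.11 and miR-125a-5p, whose seed differs from that of let-7, at -0.24 (SE 0.12, adjusted p = 0.286). MiR-99a-5p and miR-100-5p, of the clusters of let-7c and let-7a, stood at 0.06 (SE 0.07) and 0.15 (SE 0.09), with adjusted p of 0.700 and 0.388. The counts of miR-125b-5p and miR-3588 also lay under one row or the other depending on the library, and the libraries were not those of let-7a: miR-125b-5p held 141677, 81836 and 562 counts in EC and 79990, 303 and 70337 counts in EN. Their sum, a value added after seeing the data, had a log2 fold change of -0.32 (SE 0.19, adjusted p = 0.367).

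Of the 12 3p arms of the same hairpins, 11 were tested and 1 fell, let-7i-3p, where 1.92 percent of all rows passed as lower. It stood at 431, 293 and 374 CPM across EC and at 62.5, 111 and 48.4 CPM across EN, a log2 fold change of -2.31 (SE 0.33, adjusted p = 0.0193 by edgeR's test), beside -0.16 for its 5p arm. The call was lost without EC replicate 3 (adjusted p = 0.0560) and without EN replicate 3 (adjusted p = 0.0722). The next by adjusted p was let-7d-3p, at 8092 ± 439 CPM across EC and 6489 ± 395 CPM across EN (SD, n = 3), a log2 fold change of -0.32 with an adjusted p of 0.0875, beside -0.07 for the let-7d 5p pair. Its level was the highest of the 3p arms. Let-7g-3p, at a low 7.08 ± 0.648 and 4.50 ± 1.53 CPM, had a log2 fold change of -0.66 and an adjusted p of 0.247.

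Let-7a-1-3p and let-7c-2-3p have the same sequence and show the same pattern between rows that are not reverse complements. The shared sequence is:
let-7a-1-3p and let-7c-2-3p: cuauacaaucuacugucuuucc

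Let-7a-1-3p held 22, 2086 and 9 counts in EC and 2, 1421 and 23 in EN, while let-7c-2-3p held 1821, 2 and 2017 in EC and 2109, 3 and 1283 in EN. Here replicate 2 of both groups held its counts under let-7a-1-3p and the other 4 libraries under let-7c-2-3p, so these were not the libraries in which let-7a-5p was empty. Summed, after seeing the data, they stood at 288, 336 and 312 CPM across EC and 393, 318 and 283 CPM across EN, with a log2 fold change of 0.09 (SE 0.16, adjusted p = 0.763 by edgeR's test). The other 3p arms were let-7a-2-3p at 0.04, let-7c-1-3p at 0.10, let-7e-3p at 0.12, let-7f-1-3p at -0.09, let-7f-2-3p at 0.20 and miR-98-3p at -0.34 on the log2 fold change scale, with adjusted p from 0.674 to 0.911. Let-7b-3p, at 3 to 13 counts, did not pass the filter on low counts.

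Rows with a pattern over the 6 libraries like that of the family sum were ranked by the root mean square difference of centred log2 CPM, among 155 known rows of 100 CPM or more outside the family. The closest was miR-10a-5p, with a difference of 0.05, followed by miR-450a-5p (0.08), miR-338-5p (0.08), miR-26a-5p (0.08) and miR-421-5p (0.09), where the median row had 0.24. MiR-10a-5p stood at 12122, 12635 and 13132 CPM across EC and at 12534, 12073 and 10472 CPM across EN, so that, as in the family sum, EN replicate 3 was lowest. For let-7a-5p alone the closest rows were let-7i-3p, miR-188-5p, let-7a-1-3p, miR-30c-5p and miR-3557-3p. None of these 5 was close, with differences of 2.98 to 3.56 against a median of 3.92. For miR-3596a they were let-7c-2-3p, miR-3560, miR-652-3p, miR-211-5p and miR-221-3p, with 3.81 to 4.12 against a median of 4.41. Of the rows named, let-7a-1-3p, miR-3557-3p, let-7c-2-3p and miR-3560 are among those whose counts changed rows between libraries. So are let-7a-5p and miR-3596a, and likeness to them therefore holds the assignment of reads as well as level. All these ranks rest on 6 libraries, whose depth differs along with group, and are a description.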

How the data were processed

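The members, lists and tests were chosen with earlier results of these data known. The authors deposited whole-number read counts for 1289 mature miRNA rows in 6 libraries, 584 with known names and 705 predicted by them. Beside each count they deposited an RPM value, which equals the count over 1 library total to within 0.000552 and served here only to derive that total, 17861218 to 21207786 reads. The authors also deposited group means of both, per the file headers, which were not used. RNA was extracted with Trizol and made into libraries with a TruSeq kit, per the labels' protocols. HISAT2 2.0.5 and the build Rnor 6.0 are named in the submitters' processing notes. The counting program, annotation, strand setting and rule for reads with several matches are not given in the sources used.

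Counts were fitted with edgeR 4.0.16 (R 4.3.3) on the whole table: filterByExpr, TMM factors, robust quasi-likelihood test of EN against EC, Benjamini-Hochberg adjustment over all rows tested, threshold 0.05. A fit took the rows as deposited, and another took each let-7 row with its miR-3596 partner as a sum. The SE is the absolute log2 fold change over the square root of F. The edgeR fit with sums was tested on simulated data. No 2 libraries agreed within sampling noise over the rows as deposited, which include the pairs whose counts changed rows between libraries. How much those pairs added was not tested. Exact permutation tests, two-sided, compared shares. Named were all members, both lists, some of the marker rows and the 5 rows most like each pattern. The marker list also held 3 muscle rows, of which 0 were tested, and 1 liver row, which was tested and did not pass. To check pairing, deviations from group means were correlated between libraries with the same number, which gave 0.11, -0.06 and -0.0045. Libraries with unlike numbers gave -0.15 to 0.15. Sequences are from RefSeq, which matched 529 of 584 known names. RefSeq coordinates are not given, since its build is GRCr8. Python 3.11.15, pandas 2.3.3 and matplotlib 3.10.9 were used. Alternatives were RLE factors, total counts, implied totals, other filters, DESeq2 1.42.0, limma-voom 3.58.1, a replicate block, each library left out, and no predicted rows.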

Additional observations from a re-analysis of the deposited data

How the results depend on the processing

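Depth limits miR-3596b and the rarest 3p arms, which hold few counts a library. Under the alternatives run, the number of let-7 5p loci past the threshold stayed at 0 of 9 except with library totals implied by RPM, where it was 4. For deposited rows it was 2 with implied totals and 1 with DESeq2, for cluster neighbours 1 with implied totals, 1 without a filter and 1 with DESeq2, and for 3p arms 3 with implied totals. With a replicate block, 0 rows, 0 loci, 0 neighbours and 0 3p arms passed; the 3p arm call, let-7i-3p, had an adjusted p of 0.110 with that block. Over the whole table with pairs summed, 26 rows passed (4.17 percent of those tested), against 1 with the block (0.16 percent) and 80 with DESeq2 (12.8 percent). With implied totals 105 passed (17.1 percent), without a filter 45 (3.5 percent), and without 1 library 2 to 38 (0.307 to 6.01 percent). Same-numbered libraries were not shown to be paired. Without 1 library, 3p arm calls ranged from 0 to 1, the gap in the family share from -2.93 to -1.17 percentage points, and loci with separate family shares from 0 to 2. That last count was 1 without the miR-3596 rows. With all 6 libraries, 15.1 percent of all rows lay all lower in EN by CPM and 14.3 percent all higher. Groups lie apart more easily without 1 library, and the share over all rows was not worked out there. The counts of separate family shares are thus a description.

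Log2 fold changes turned sign only where none passed. With implied totals they became -0.28 (miR-3596b), -0.30 (miR-3596d), -0.27 (miR-99a-5p), -0.17 (miR-100-5p), -0.28 (let-7a-2-3p), -0.22 (let-7c-1-3p), -0.080 (let-7c-2-3p), -0.20 (let-7e-3p) and -0.10 (let-7f-2-3p), as the divisor moved the median of all rows to -0.30. Without the predicted rows they became 0.019 for let-7d-5p alone, 0.021 for its sum, 0.052 for let-7a-1-3p and 0.0015 for let-7f-1-3p, and without a filter -0.0025 for miR-3596d. Without 1 library, deposited rows ranged from -0.25 to 0.0043 (let-7b-5p), -0.11 to 0.054 (let-7d-5p), -0.20 to 0.073 (let-7e-5p), -0.14 to 0.26 (miR-3596b), -0.24 to 0.12 (miR-3596c) and -0.068 to 0.12 (miR-3596d). In the fit with sums the ranges were -0.25 to 0.0052 (let-7b-5p), -0.12 to 0.043 (let-7d + miR-3596b) and -0.22 to 0.071 (let-7e + miR-3596c). They were -0.77 to 0.62 (miR-125b-5p), -8.25 to 6.44 (miR-3588), -5.38 to 5.51 (let-7a-1-3p), -0.46 to 0.81 (let-7c-2-3p), -0.088 to 0.20 (let-7a-2-3p), -0.25 to 0.076 (let-7f-1-3p), -0.18 to 0.62 (let-7f-2-3p) and -0.69 to 0.20 (miR-98-3p). The cause of the shifts other than those of the divisor was not tested. Of 603 recomputed values of single rows, 49 turned sign and 539 kept direction and side of the threshold. Summing all rows of identical or reverse-complementary sequences, added after seeing the data, left 0 of 9 loci past the threshold.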
